A study of Rattus norvegicus with 12 samples.

Results

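Potassium channel genes of the rat striatum were taken as all genes with a symbol starting Kcn, apart from Kcnj8 and Kcnj13, whose probes were marked well above background on all 3 arrays of at least 1 group. The arrays carried 111 such probes for 85 symbols, of 95 such symbols in the reference table. Of these, 97 probes for 75 genes met the rule, among 21600 probes of 30367 in all, and 14 probes did not. No probe passed for 10 symbols, namely Kcne1, Kcnh8, Kcnj1, Kcnj15, Kcnj6, Kcnk15, Kcnk18, Kcnk9, Kcnmb1 and Kcnmb3. The rule used signal over background and no difference between groups, but 2 of the 75 genes, Kcne3 and Kcna7, passed through the arrays of the L-DOPA group alone.

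Potassium channels are pores that let potassium leave or enter the cell and so set the resting potential, the width of the spike and the firing pattern. Voltage-gated (Kv) channels open on depolarisation, inward rectifiers (Kir) and two-pore channels (K2P) hold the resting potential, and the BK and SK channels open with intracellular calcium. Spiny projection neurons, the main striatal cell type, are known for a very negative resting potential held by inward rectifiers, for A-type currents carried by Kv4 with KChIP partners, and for M-type currents carried by Kv7.

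RNA came from the striatum of male Wistar rats, hybridised to single-colour Agilent arrays, with 3 arrays in each of 4 groups and 3 animals assigned to each group. All rats had received the dopamine-neuron toxin 6-hydroxydopamine (6-OHDA) in the left medial forebrain bundle, and were kept if they made at least 7 turns per minute after methamphetamine at 3 mg/kg. Treatment ran once a day for 7 days. The non-lesioned saline group (NL in the plots) is the uninjured side of saline-treated rats, and the lesioned saline group (SL) is the toxin-treated side of saline-treated rats. The L-DOPA group (DL) is the lesioned side after 100 mg/kg of the dopamine precursor L-DOPA, given 30 min after benserazide, which blocks its conversion outside the brain. The L-DOPA with zonisamide group (ZDL) also received 50 mg/kg of the antiepileptic zonisamide 30 min after each L-DOPA dose. The control side thus belongs to a brain with a lesion on the other side, ages are not given in the sources used here, and the sources used here do not say if NL and SL arrays share animals. Replicates within a group are separate numbered samples, and the p-values measure the spread between them.

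All levels below are log2 processed signals minus the 75th percentile of the same array, so that a value of 0 is that percentile of the array; levels of different genes are not comparable, since probes differ in brightness. Between 70.9% and 77.4% of the spots of an array were well above background, the 75th percentile signal lay between 793 and 1737, and arrays correlated with each other at 0.935 to 0.984. Among markers of spiny projection neurons, 13 of 14 passed the same filter. The 4 arrays numbered NL 3, DL 2, DL 3 and ZDL 3 stood apart in markers of the choroid plexus, the secretory epithelium of the brain ventricles. The level of the 10 tested of 12 such markers, given for this and all other marker lists as the log2 of their mean scaled signal, was 3.51 to 4.17 on these 4 arrays and -1.47 to 1.25 on the other 8. For some genes, changes that rest on DL 2 and DL 3 are given with and without these 4 arrays. Without them the L-DOPA group is 1 array, which is then assumed to vary like the other groups.

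No change that passed the test was found among the 75 genes for the lesion, and 1 gene, Kcne3, was called with L-DOPA, through whose arrays alone it had passed the filter. The question of the first comparison is what loss of dopamine input does to the lesioned side under saline; 0 of 75 genes passed limma's test at an adjusted p of 0.05, where 0% of all 19412 features did. At an unadjusted p below 0.05 there were 6 genes, or 8%, against 8.48% of all features. With L-DOPA against lesioned saline, 1 of 75 genes was called, against 0.433% of all features. An unadjusted p below 0.05 was found for 12 genes, Kcne3 among them, or 16%, against 11.3%. With zonisamide added to L-DOPA, 0 genes were called, against 0.479% of all features. Here 15 genes, or 20%, had an unadjusted p below 0.05, against 12.4%. Kcne3 and Kcna7, which passed the filter through the L-DOPA arrays alone, are among these 15. L-DOPA with zonisamide against lesioned saline gave 0 calls, where 0% of all features were called, and 2 genes with an unadjusted p below 0.05, against 7.34%. Limma's F test of any difference between the 4 groups called 0 genes, against 0.273% of all features, with 14 genes at an unadjusted p below 0.05, or 18.7%, against 11.8%. The lowest adjusted p of that test was 0.0562, for Kcne3, which is among these 14 genes.

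The median log2 change of the 75 genes was -0.10 for the lesion, where the median of all features was 0.05, and -0.06 for L-DOPA, where it was -0.03. For zonisamide added to L-DOPA the median was 0.06 against -0.03, and for both drugs against lesioned saline 0.06 against -0.05. All 4 medians lie within the pooled SD of 0.20 that the median of these genes showed between arrays of a group. The median size of the change, whatever its sign, was 0.23, 0.26, 0.37 and 0.26 on the log2 scale for the lesion, L-DOPA, zonisamide and both drugs, where all features had 0.22, 0.24, 0.24 and 0.22. Past 2-fold in either direction lay 4 genes for the lesion, against 8.08% of all features, and 7 with L-DOPA, against 7.66%. With zonisamide 9 did, against 6.71%, and with both drugs 1, against 6.49%. Kcne3 is among the 7, and Kcne3 and Kcna7 are among the 9. The groups compared did not overlap for 12 genes in the lesion comparison, against 17% of all features, for 17 in the L-DOPA comparison, against 22.4%, for 12 in the zonisamide comparison, against 17.3%, and for 5 with both drugs, against 18.1%. The 95% interval of the change lay within 2-fold in either direction for 40, 39, 33 and 40 of the 75 genes in these 4 comparisons, against 60.5%, 58%, 57% and 60.9% of all features; for the other genes it reached past 2-fold.

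**Figure D1:**
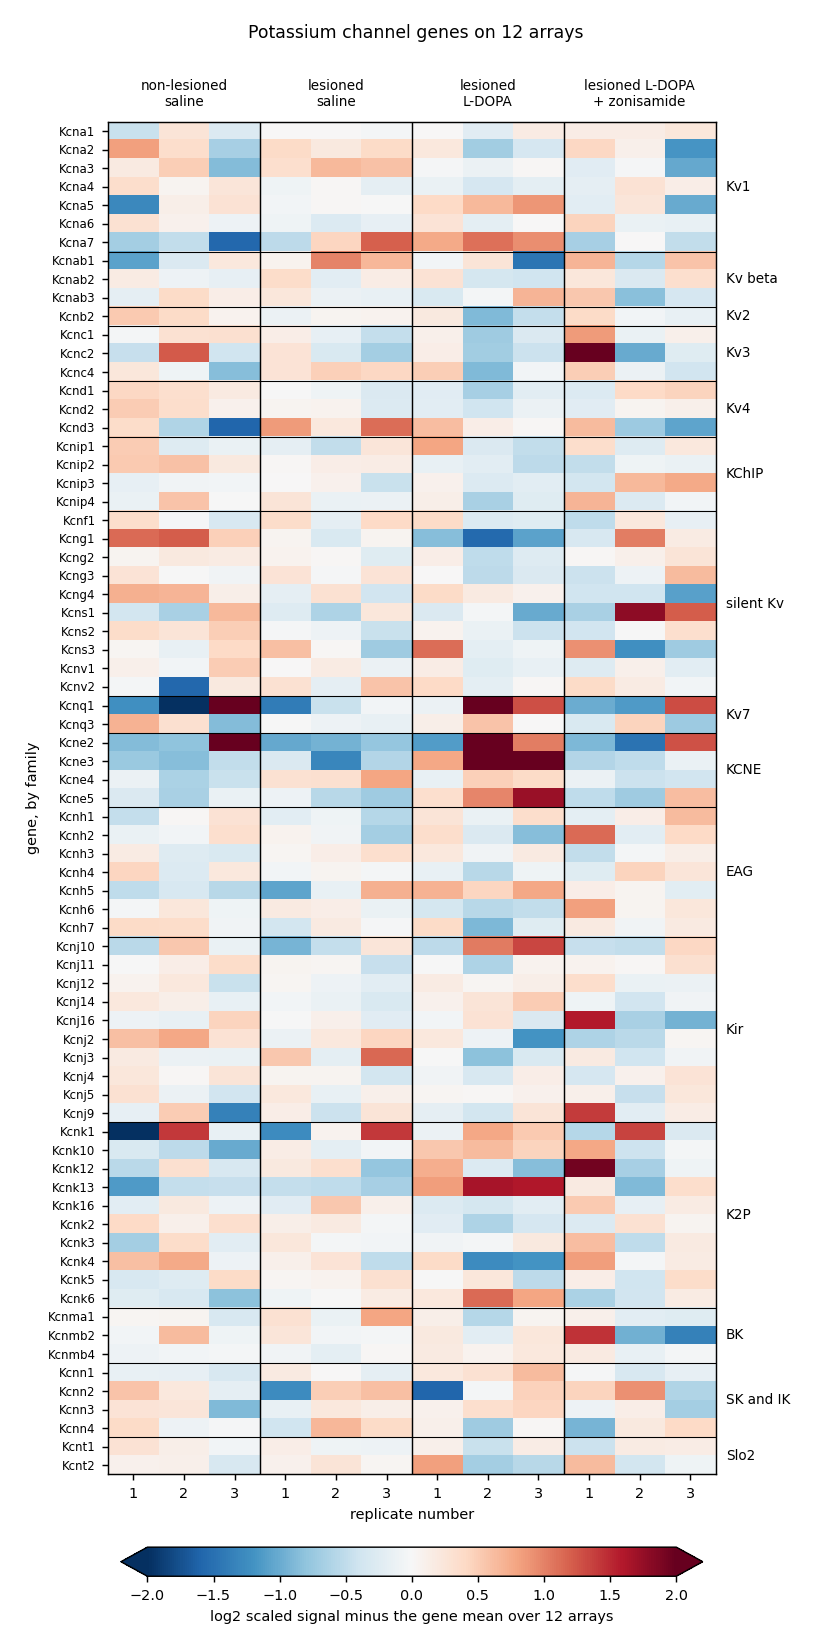
Level of 73 of the 75 genes (rows, by family) on the 12 arrays (columns, by group and replicate number), as log2 scaled signal minus the mean of the gene over all arrays; red is above and blue below that mean, and the scale ends at 2 in both directions. Kcnk13 and Kcne3 are red on all 3 L-DOPA arrays, and Kcne2 and Kcnq1 are red on 1 or 2 arrays in each of 3 groups.

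Kcne3 encodes a single-pass accessory subunit that, with Kv7.1, keeps the channel open, and Kcnk13 encodes THIK-1, a two-pore channel best known from microglia. The 250 bases before the RefSeq start of each are shown because these genes had the largest changes with L-DOPA; they were chosen after their values were seen. They come from the GRCr8 assembly, 5′ to 3′ on the strand of the gene, at chr1:163935785-163936034 (+) for Kcne3 and chr6:124971559-124971808 (+) for Kcnk13.
Kcne3: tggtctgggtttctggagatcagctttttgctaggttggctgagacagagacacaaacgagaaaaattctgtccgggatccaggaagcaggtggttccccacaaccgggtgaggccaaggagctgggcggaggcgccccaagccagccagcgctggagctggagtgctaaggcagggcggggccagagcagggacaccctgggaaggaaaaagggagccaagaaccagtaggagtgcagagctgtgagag
Kcnk13: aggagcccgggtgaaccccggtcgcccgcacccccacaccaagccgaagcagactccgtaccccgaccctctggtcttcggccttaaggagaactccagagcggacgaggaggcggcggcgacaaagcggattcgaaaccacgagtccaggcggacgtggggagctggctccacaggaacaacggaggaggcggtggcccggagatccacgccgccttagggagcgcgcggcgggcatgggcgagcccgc
Neither stretch holds the cAMP response element TGACGTCA, its shorter form TGACG or the AP-1 motif TGANTCA on either strand, motifs of factors known to act in L-DOPA-treated striatum. The shorter form lies within each TGACGTCA. Among 27457 promoter stretches of this length, 1.7% held the first, 19% the second and 6.36% the third. Of 50 of the 75 genes with a matched promoter, 0, 7 and 1 held them. No match says only that these letters are not in this window.

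Kcne3 was called higher with L-DOPA. It lay at -7.87, -8.88 and -8.17 on the lesioned saline arrays and at -6.81, -5.24 and -5.22 on the L-DOPA arrays. On the non-lesioned arrays it lay at -8.32, -8.44 and -8.07, and with zonisamide added at -8.16, -8.10 and -7.71. The L-DOPA arrays thus lie above all 9 others without overlap, and only on them was the probe well above background. The log2 change with L-DOPA was 2.55 ± 0.41 (SE, n = 3 per group; limma, adjusted p = 0.0347). As the dim arrays give only a bound, each was counted at the lowest signal it marked as well above background or its own, whichever was higher. So counted, the L-DOPA mean was at least 3.78-fold that of lesioned saline. Such a bound covers the means of these arrays only and leaves out the spread between them. Against L-DOPA alone, the mean with zonisamide added was at least 4.23-fold lower when counted so. The log2 difference as measured was -2.23, with an adjusted p of 0.0516 by limma, which misses the threshold. With normexp background correction this difference was -0.42 (adjusted p = 0.911), so both bounds hold only for the scanner's own background correction. Without the 4 arrays high in choroid plexus markers the difference was -1.32, from 1 L-DOPA array. Both comparisons share the L-DOPA arrays, and the gene passed the filter only through them, so that it had to be higher there.

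The call for Kcne3 depended on the filter, the arrays and the background correction. With no filter on dim probes the adjusted p was 0.0517, which misses the threshold, and with a filter that asks for all 12 arrays the gene was not tested. With normexp background correction the change was 0.60 (adjusted p = 0.659), and with the slide as a fixed block 2.49 (adjusted p = 0.352). Leaving out 1 array of either group at a time moved it between 2.26 and 3.08, with adjusted p between 0.00577 and 0.160; the call was kept only without L-DOPA replicate 1, the lowest of the L-DOPA arrays. With the choroid plexus marker Ttr as a covariate it was 2.34 (adjusted p = 0.388), and without the 4 arrays high in that marker it was 1.498 (adjusted p = 0.434), with L-DOPA replicate 1 alone in its group. NL 3 and ZDL 3, with choroid plexus marker levels of 3.91 and 3.51, read -8.07 and -7.71 for Kcne3, not well above background. DL 2 and DL 3, at 4.17 and 3.68, read -5.24 and -5.22. Within the NL, DL and ZDL groups, the arrays high in these markers read highest for Kcne3. The part of choroid plexus in the Kcne3 values was not tested further. On the 2 slides with an array of each group, the difference was 1.06 and 3.64.

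Kcnk13 showed the second largest change with L-DOPA and came next to the threshold. Lesioned saline arrays read -0.35, -0.39 and -0.54 and L-DOPA arrays 0.96, 1.76 and 1.72. The non-lesioned arrays read -1.01, -0.36 and -0.35, and those with zonisamide added 0.30, -0.77 and 0.47. Every L-DOPA array lay above all 9 others, and the spread with zonisamide added was the widest of the 4 groups, with an SD of 0.67. The log2 change with L-DOPA was 1.91 ± 0.34 (3.76-fold; limma, adjusted p = 0.0502), and zonisamide added to L-DOPA gave -1.48 ± 0.34 (adjusted p = 0.0988). A second, dimmer probe for the gene gave 2.12 (adjusted p = 0.0243 with every probe tested on its own) and -1.94 (adjusted p = 0.0339). With the mean of both probes, Kcnk13 was called in both comparisons, at 2.02 (adjusted p = 0.0161) and -1.71 (adjusted p = 0.0352). It was also called with L-DOPA under normexp with quantile normalization (1.81, adjusted p = 0.0419) and with the filter on all 12 arrays (adjusted p = 0.0455). In 15 of the 22 other settings tried, the probe that stands for the gene was not called with L-DOPA. Among these were normexp alone (adjusted p = 0.0665), the replicate number as a block (adjusted p = 0.105) and the slide as a fixed block (1.66, adjusted p = 0.385). Leaving out 1 array at a time, it was called only without L-DOPA replicate 1 (adjusted p = 0.0322). With Ttr as a covariate the L-DOPA change was 1.45 (adjusted p = 0.475), and without the 4 arrays of highest Ttr 1.39 (adjusted p = 0.641), from 1 L-DOPA array. On the same 2 slides as for Kcne3 the L-DOPA change was 1.32 and 2.15. The mean level of 10 microglia markers, all 10 tested, was 0.84 to 1.36 on the non-lesioned arrays, 1.43 to 1.84 on lesioned saline arrays, 1.33 to 1.64 with L-DOPA and 1.02 to 1.17 with zonisamide added. Singly, all 10 were higher with the lesion, and with L-DOPA 4 were higher and 6 lower. With zonisamide added to L-DOPA 2 of these microglia markers were higher and 8 lower. The level of 12 vascular markers, all 12 tested, was -0.54, -0.04 and -0.22 on the L-DOPA arrays. It was -1.15 to -0.67 in both saline groups and -1.49 to -0.92 with zonisamide added. Singly, 7 of the 12 markers were higher and 5 lower with L-DOPA against lesioned saline. With zonisamide added to L-DOPA, 1 was higher and 11 lower. Kcne3, Kcnk13 and Kcne5 had their highest group mean with L-DOPA. The part of microglia and of vascular cells in the values of these 3 genes was not tested. In whole tissue, fewer cells of a type and less RNA per cell cannot be told apart.

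**Figure D2:**
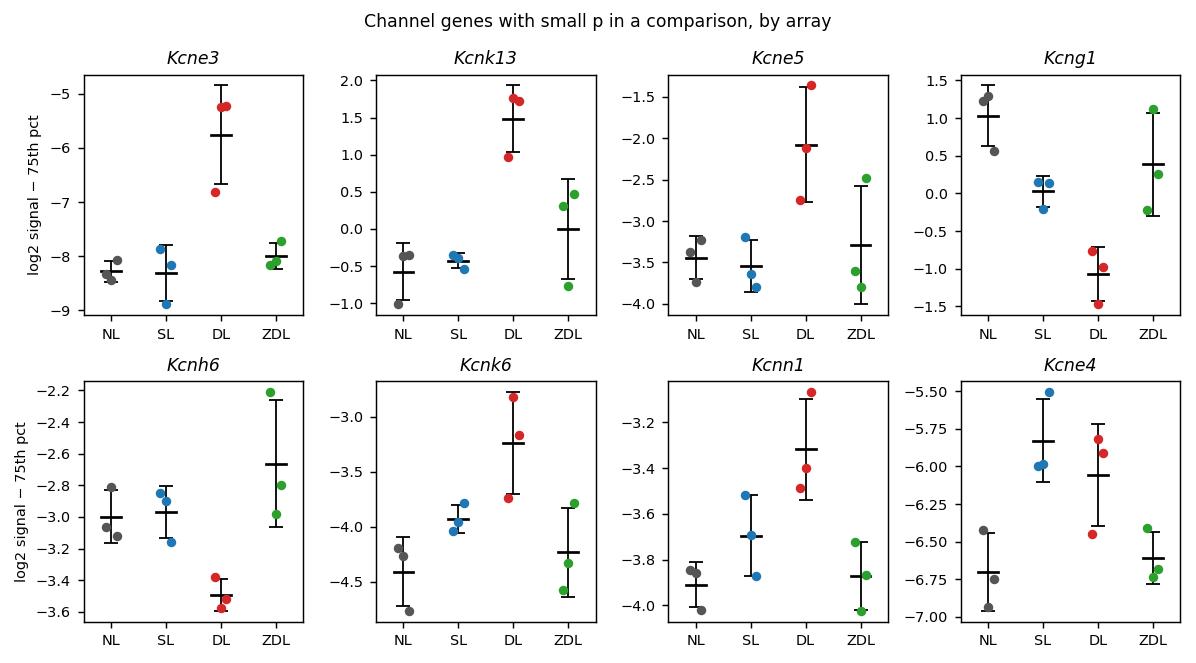
Levels of 8 potassium channel genes on each array (points; log2 scaled signal) by group, with the mean (wide bar) and SD (whiskers) of 3 arrays; NL non-lesioned saline, SL lesioned saline, DL lesioned L-DOPA, ZDL lesioned L-DOPA with zonisamide. The vertical axes differ between genes; Kcne3 and Kcnk13 lie higher on the 3 DL arrays than on all others, and Kcnh6 lies lower there.

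Of the other KCNE subunits, Kcne5, which slows or blocks Kv7.1 in cell systems, read -3.19, -3.64 and -3.79 under lesioned saline and -2.75, -2.12 and -1.36 with L-DOPA. These do not overlap, and the change was 1.47 ± 0.40 (adjusted p = 0.186), while a second probe gave 1.57 (adjusted p = 0.123). Without the 4 arrays of highest Ttr it was 0.79 (adjusted p = 0.748). With zonisamide added the arrays read -3.60, -3.80 and -2.48, within which replicate 3 overlapped L-DOPA, a change of -1.22 ± 0.40 (adjusted p = 0.245). Kcne4, an inhibitory subunit of Kv1 and Kv7 channels, had the smallest p of the lesion comparison. It read -6.42, -6.93 and -6.75 on the non-lesioned side and -5.99, -5.98 and -5.51 on the lesioned side, a change of 0.87 ± 0.22 (adjusted p = 0.419) that was -0.0015 with normexp background correction. With both drugs it read -6.41, -6.74 and -6.68, again below all lesioned saline arrays, a change of -0.78 ± 0.22 (adjusted p = 0.621) that was 0.024 with normexp.

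Kcne2, the remaining KCNE subunit, and the Kv7 gene Kcnq1 form a channel known from the choroid plexus, and both were high on the arrays high in its markers. Kcne2 read 2.04 on NL 3, 1.51 on DL 2, -0.02 on DL 3 and 0.24 on ZDL 3, and between -2.51 and -1.81 on the other 8 arrays. Kcnq1 read -1.11, -1.71, -2.65 and -2.65 on the same 4 arrays and between -6.25 and -4.00 on the rest. Their L-DOPA changes of 1.73 ± 1.19 and 1.77 ± 1.21 (adjusted p = 0.625 for both) rest on DL 2 and DL 3; without the 4 arrays they were -0.20 and 0.52. A second Kcnq1 probe gave -0.32. Other Kv7 genes carry the neuronal M-current. Kcnq3, at 1.13, 1.03 and 0.97 under lesioned saline and 1.24, 1.70 and 1.14 with L-DOPA, did not overlap in that comparison, but the change was 0.32 ± 0.40.

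**Figure D3:**
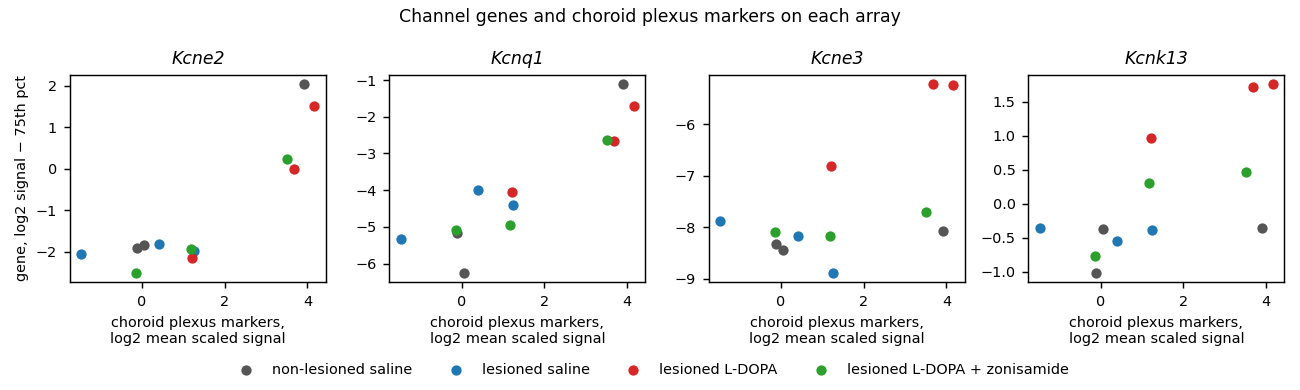
Level of 4 channel genes (vertical, log2 scaled signal) against the mean level of 10 choroid plexus markers (horizontal, log2 mean scaled signal) on each of the 12 arrays, coloured by group. Kcne2 and Kcnq1 are high on the 4 arrays with marker levels of 3.51 to 4.17 in whichever group. Kcne3 and Kcnk13 are higher on every L-DOPA array than on any other array. Within the NL, DL and ZDL groups, Kcne3 and Kcnk13 also read highest on the arrays with these marker levels. The part of choroid plexus in their values was not tested further.

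Among the 7 genes of Kv1 channels, which sit largely on axons and oppose spikes, none was called in any comparison. Kcna1 stayed within 2.35 to 3.06 on all 12 arrays, with a lesion change of 0.15 (95% interval -0.27 to 0.56) and an L-DOPA change of -0.01 (-0.43 to 0.41). Kcna2 had wider intervals, with an L-DOPA change of -0.59 (-1.62 to 0.43). The A-type subunit Kcna4 read 0.55, 0.25 and 0.43 on the non-lesioned side and 0.11, 0.22 and 0.01 on the lesioned side. These groups do not overlap, but the change of -0.30 (-0.65 to 0.05) was not called (adjusted p = 0.637). Kcna7, at the edge of detection and well above background on 2 of 3 arrays in both saline groups, on all 3 with L-DOPA and on 1 with zonisamide added, passed the filter through the L-DOPA arrays alone. Over the other settings tried its lesion change ran from 0.09 to 1.73 and its zonisamide change from -1.50 to -0.34, and it was called under none of them (lowest adjusted p = 0.295 and 0.103). Kcna3, a channel also of microglia and T cells, read -4.69, -4.39 and -4.45 under lesioned saline and -5.26, -5.05 and -6.06 with both drugs. The change was -0.95 ± 0.34 (adjusted p = 0.656). Of the 3 Kv beta subunits, which bind Kv1 channels inside the cell, Kcnab1 had the widest change, 0.95 ± 0.52 with the lesion and -0.99 ± 0.52 with L-DOPA; its second probe gave -0.28 and -0.06.

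The somatodendritic Kv2 and Kv4 families and the KChIP subunits, which bind Kv4 and raise its surface level, held no gene that was called in any comparison. Kcnd2, a Kv4 pore subunit of spiny neurons, read 3.47, 3.32 and 3.06 on non-lesioned arrays and 3.02, 3.05 and 2.69 under lesioned saline, a change of -0.36 (-0.74 to 0.02; adjusted p = 0.594), and its second probe gave -0.30. Kcnip2 read -0.37, -0.32 and -0.71 against -0.88, -0.77 and -0.76 (-0.33; adjusted p = 0.630). With L-DOPA it read -1.05, -1.11 and -1.42 (-0.40, interval -0.78 to -0.01; adjusted p = 0.431), and read -1.40, -0.98 and -1.03 with zonisamide added. Kcnd1 also did not overlap with the lesion (-0.44 ± 0.21; adjusted p = 0.604). Kcnd3 lay at -2.82, -3.79 and -4.78 on the non-lesioned and -2.33, -2.98 and -2.07 on the lesioned side, a change of 1.33 ± 0.53 (adjusted p = 0.570) across overlapping groups.

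Kv3 channels allow fast firing, as in parvalbumin interneurons. Kcnc1 changed by -0.37 (-1.01 to 0.28) with the lesion and 0.58 (-0.07 to 1.23) with zonisamide added to L-DOPA. Kcnc2 read 0.50 on ZDL 1 and -3.13 and -2.37 on the other 2 arrays of that group, so no comparison of it was precise (SE 0.82). The level of 9 interneuron markers was 1.35 to 1.97, 1.56 to 1.63, 1.18 to 1.26 and 1.45 to 1.80 in the NL, SL, DL and ZDL arrays. Singly, 6 were higher and 3 lower with the lesion, and 1 higher and 8 lower with L-DOPA. With zonisamide added to L-DOPA 7 were higher and 2 lower. The part of these markers in the Kv3 values was not tested.

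The 10 silent Kv subunits form no channel alone and modify Kv2. Kcng1 read 1.23, 1.30 and 0.56 on the non-lesioned side, 0.15, -0.21 and 0.14 under lesioned saline, -0.77, -1.47 and -0.98 with L-DOPA, and -0.22, 1.12 and 0.25 with zonisamide added. The non-lesioned, lesioned saline and L-DOPA arrays form 3 separate steps, and the arrays with zonisamide added lie above L-DOPA without overlap. Its log2 changes were -1.001 ± 0.34 (adjusted p = 0.511), -1.10 ± 0.34 (adjusted p = 0.248) and 1.46 ± 0.34 (adjusted p = 0.102), none of them called in the lesion, L-DOPA and zonisamide comparisons; the lesion and L-DOPA comparisons share the lesioned saline arrays, and the L-DOPA and zonisamide comparisons share the L-DOPA arrays. A second, dimmer probe for Kcng1 gave -0.16, 0.12 and -0.31, so the steps rest on 1 probe. Without the 4 arrays of highest Ttr the L-DOPA change was -0.79, and with Ttr as a covariate -0.60. Kcng4 had a zonisamide change of -0.84 ± 0.26 (adjusted p = 0.202) and Kcns2 a lesion change of -0.57 ± 0.21 (adjusted p = 0.552). Across the family the lesion changes ran from -1.001 to 0.71 (Kcnv2) and the L-DOPA changes from -1.10 to 0.31 (Kcns3).

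**Figure D4:**
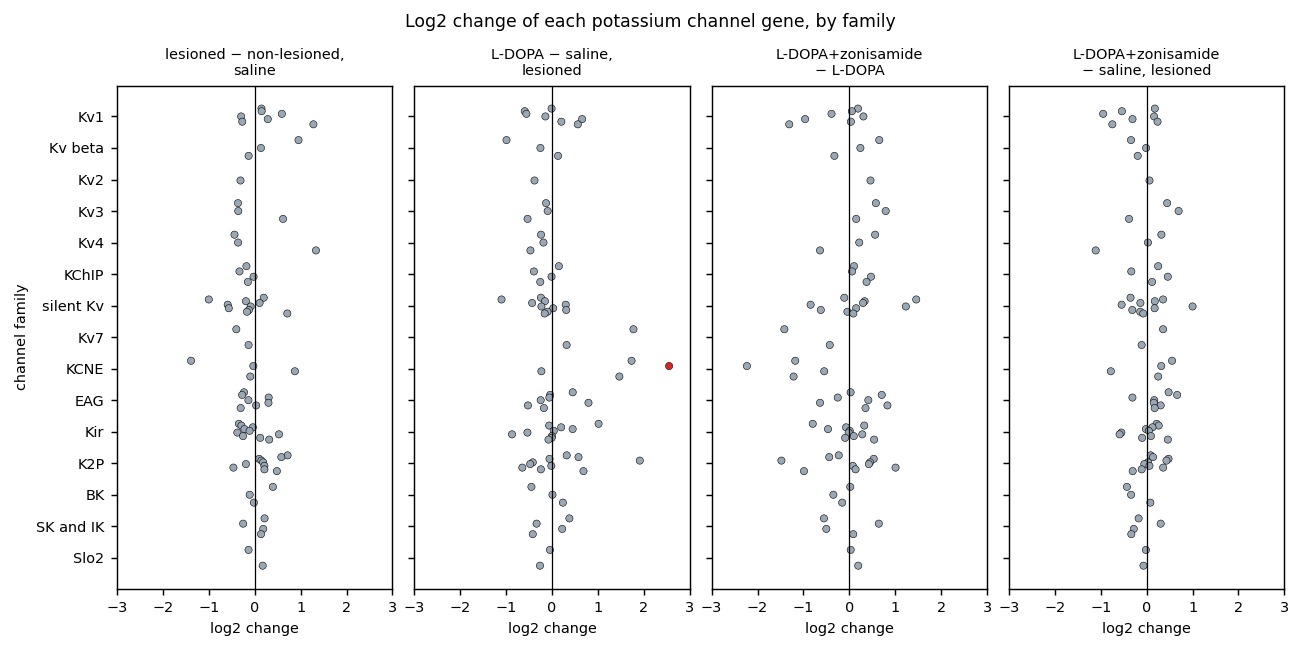
Log2 change of 73 of the 75 genes (points) in the 4 comparisons (panels), by family (rows); the red point is Kcne3, the 1 gene called by limma at an adjusted p below 0.05, and all other points are grey. Most points lie within 1 of 0, and the points farthest from 0 with L-DOPA belong to the KCNE, Kv7 and K2P rows.

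The 7 EAG genes include the ERG channels and the forebrain Elk channel Kcnh4. Kcnh6 read -2.85, -2.90 and -3.16 under lesioned saline, -3.38, -3.58 and -3.52 with L-DOPA and -2.21, -2.98 and -2.80 with zonisamide added. L-DOPA was thus the lowest of the groups on every array, at changes of -0.52 ± 0.20 (adjusted p = 0.360) and 0.83 ± 0.20 (adjusted p = 0.117). Kcnh4 read 0.52, 0.62 and 0.52 under lesioned saline and 0.41, 0.01 and 0.48 with L-DOPA (-0.25, interval -0.76 to 0.26). Kcnh1 changed by 0.48 ± 0.27 with both drugs (adjusted p = 0.697), and Kcnh5 was above background on 2 of 3 arrays in both saline groups and on all 3 in both drug groups.

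Of the 10 inward rectifiers, none was called in any comparison. The channels that hold the resting potential of spiny neurons, Kir2.1 (Kcnj2) and Kir2.3 (Kcnj4), had lesion changes of -0.38 (-1.15 to 0.39) and -0.26 (-0.71 to 0.20) and L-DOPA changes of -0.54 (-1.30 to 0.23) and 0.00 (-0.46 to 0.45). The Kcnj2 probe was dim, reading from -7.21 to -5.24, a range within that of Kcna7 (-7.74 to -4.99). Over the other settings tried, its lesion change ran from -0.76 to -0.18 and its L-DOPA change from -0.82 to 0.14. Its changes are thus less certain than those of a bright probe. Kcnj10, the potassium channel of astrocytes and oligodendrocytes, read -6.26, -5.81 and -5.09 under lesioned saline and -5.84, -4.28 and -3.99 with L-DOPA, a change of 1.01 (-0.12 to 2.15; adjusted p = 0.499) across overlapping groups that was -0.12 without the 4 arrays of highest Ttr. The level of 8 astrocyte markers was 4.29 to 4.65 under lesioned saline and 3.98 to 4.18 with L-DOPA. Singly, 4 of them were higher and 4 lower with L-DOPA. Kcnj3, a subunit of the channels opened by G protein-coupled receptors, read 0.75, 0.02 and 1.37 under lesioned saline against 0.21, -0.60 and -0.08 with L-DOPA (-0.87 ± 0.33; adjusted p = 0.350). Kcnj14 (Kir2.4) read -0.01, -0.10 and -0.26 under lesioned saline against 0.13, 0.30 and 0.55 with L-DOPA and -0.05, -0.34 and -0.04 with zonisamide added. Its changes of 0.45 and -0.47, both ± 0.17, were without overlap but not called (adjusted p = 0.347 and 0.282).

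Among the other two-pore channels, Kcnk2 (TREK-1), a background channel closed by Gs- and Gq-coupled receptors, read 2.73, 2.80 and 2.59 under lesioned saline and 2.40, 2.00 and 2.29 with L-DOPA. The change was -0.48 (-0.88 to -0.07, adjusted p = 0.353 by limma), the largest of the 3 probes of the gene, which ran from -0.48 to -0.20. Kcnk6 read -4.04, -3.96 and -3.79 under lesioned saline, -3.74, -2.82 and -3.17 with L-DOPA and -4.58, -4.33 and -3.79 with zonisamide added, the last a change of -0.99 ± 0.28 (adjusted p = 0.161). On the 3 slides with an array of both L-DOPA groups that difference was -0.84, -1.51 and -0.62. Kcnk1 varied most between arrays of a group among the two-pore channels, from -3.17 to 1.43 within the non-lesioned side alone, and no comparison of it was precise (SE 1.07). The mean level of the vascular markers given beside Kcnk13 was highest on the L-DOPA arrays, though 5 of the 12 were lower there than under lesioned saline. Kcna5 was another gene without overlap in the L-DOPA and zonisamide comparisons (0.66 ± 0.41 and -0.96 ± 0.41). The part of vascular cells in the values of Kcnk6, Kcne4 and Kcna5 was not tested.

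No calcium-activated channel was called in any comparison. The BK pore Kcnma1 had a lesion change of 0.40 (-0.19 to 0.98) and an L-DOPA change of -0.45 (-1.03 to 0.13), with 2 further probes at -0.18 and -0.06 for the lesion. With L-DOPA its 3 probes ran from -0.45 to 0.08 and differed in sign. The neuronal BK subunit Kcnmb4 was the steadiest of the 75 genes, with a pooled SD of 0.11 between arrays of a group. It read 2.05, 1.91 and 2.13 under lesioned saline and 2.28, 2.18 and 2.33 with L-DOPA, which do not overlap, with a change of 0.24 (-0.06 to 0.53; adjusted p = 0.549). Kcnn1, an SK channel that follows spikes with a hyperpolarisation, read -3.52, -3.69 and -3.87 under lesioned saline and -3.49, -3.40 and -3.07 with L-DOPA. With zonisamide added it read -3.72, -4.02 and -3.87. Its changes were 0.38 ± 0.16 (adjusted p = 0.420) and -0.55 ± 0.16 (adjusted p = 0.182). Kcnn3 changed by 0.19, 0.22 and -0.50, each ± 0.32, in the lesion, L-DOPA and zonisamide comparisons. The sodium-activated Slo2 genes Kcnt1 and Kcnt2 had lesion changes of -0.13 and 0.17.

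**Figure D5:**
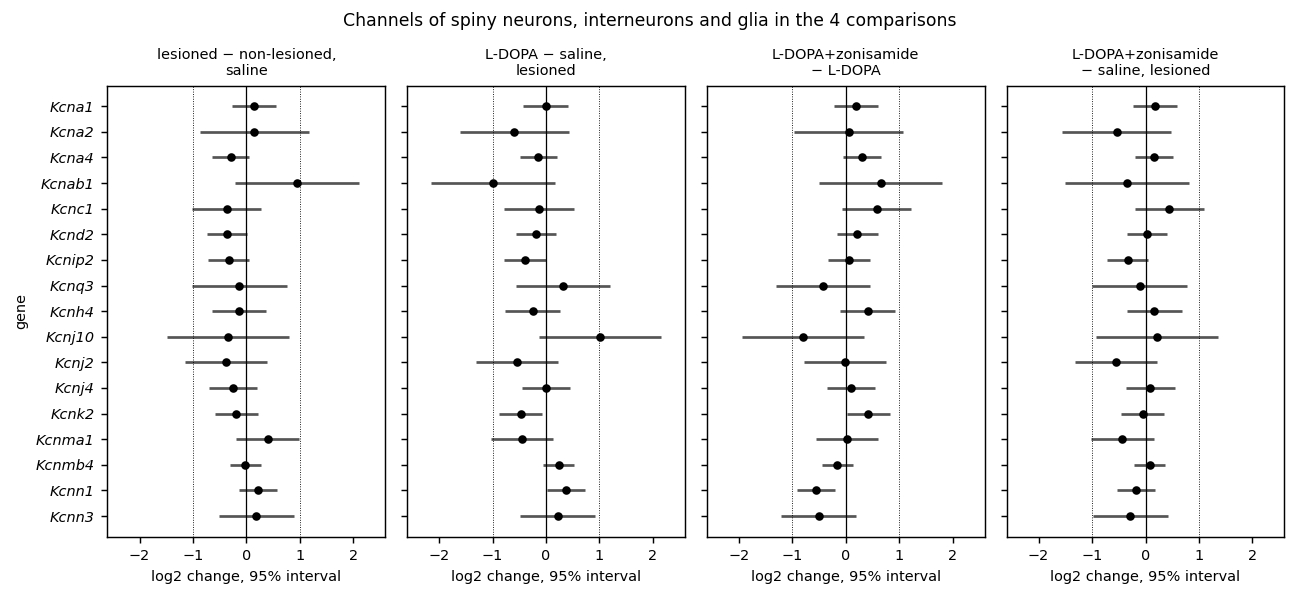
Log2 change (point) with its 95% interval from limma (bar) of 17 channels well described in striatal or glial cells, in the 4 comparisons; dotted lines mark 2-fold in either direction. In each comparison 11 of the 17 intervals lie within 2-fold, and none of the 17 genes was called. Of all features, 57% to 60.9% had an interval within 2-fold, depending on the comparison.

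Of the 20 channels listed as well described in striatal or glial cells, 19 were tested, of which 17 are described here, and Kcnj6 was not, since it did not pass the filter. In each of the 4 comparisons 11 of the 17 intervals lay within 2-fold, so that a change of that size lay outside the interval for these. Of all features, 60.5%, 58%, 57% and 60.9% had such an interval for the lesion, L-DOPA, zonisamide and both drugs. The smallest adjusted p was 0.182, for Kcnn1 with zonisamide.

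Arrays differed in ways not shared by their group. ZDL 1 held the highest of the 12 values for 14 of the 75 genes, among them Kcnc2, Kcnk12, Kcnj9, Kcnj16 and Kcnmb2. On it Kcnk12 read 0.25, against -2.36 and -1.77 on the other arrays of the group, and Kcnj9 read -1.15, against -2.75 and -2.40. Of 12 cortical neuron markers 6 were tested, and their mean level was -3.52 to -2.34, -2.99 to -2.47, -2.67 to -2.21 and -2.32 to -2.14 on the NL, SL, DL and ZDL arrays. ZDL 1 had the highest value of the 12 arrays for 2 of them, Nrn1 at -1.86 and Rtn4r at -1.55, and the second highest for Neurod6, at -2.71 after -2.50 on DL 1. Neurod2 read -3.28 on it, in a range of -6.74 to -2.15 over the 12 arrays, while Fezf2 at -3.59 (range -3.92 to -2.44) and Lamp5 at -1.30 (range -1.53 to 0.12) lay near their lowest. With zonisamide added to L-DOPA 3 of the 6 were higher and 3 lower; their part in the channel values of this array was not tested. DL 2 held the lowest value for 22 genes, among them Kcng1, Kcnh6 and Kcnk2. For neither array was the share over all features counted, so these counts may not be particular to channel genes. The pooled SD between arrays of a group ran from 0.11 to 1.67, with a median of 0.38, and exceeded 1 for 4 genes, Kcnq1, Kcne2, Kcnk1 and Kcnc2.

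Probes of a gene did not always point the same way. Of the 75 genes, 20 had several passing probes, 42 in all, and the sign of the change differed between them for 11 genes in the lesion comparison, 6 with L-DOPA, 7 with zonisamide and 8 with both drugs. Both probes of Kcnk13 and Kcne5 agreed in sign for L-DOPA and zonisamide, those of Kcng1 and Kcnq1 did not for L-DOPA.

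Genes of the same machinery whose symbols do not start with Kcn were 32 tested of 36 listed, covering HCN channels, partners of Kv4, Kv2, Kv1 and BK channels, sulfonylurea receptors, regulators of G protein-gated channels and the sodium-potassium pump. By limma none of the 32 rose or fell in any of the 4 comparisons, with 3, 1, 2 and 2 of them at an unadjusted p below 0.05 for the lesion, L-DOPA, zonisamide and both drugs, where 8.48%, 11.3%, 12.4% and 7.34% of all features were. The groups did not overlap for 8, 8, 6 and 7 of the 32, against 17%, 22.4%, 17.3% and 18.1% of all features. Their median changes were -0.01, -0.06, 0.06 and -0.02. The smallest unadjusted p-values with L-DOPA and with both drugs belonged to Rgs7, which speeds the closing of G protein-gated channels, at 0.60 ± 0.18 (adjusted p = 0.222) and 0.85 ± 0.18 (adjusted p = 0.493). With zonisamide added to L-DOPA it was Abcc8, the sulfonylurea receptor of neuronal ATP-sensitive channels, at 0.56 ± 0.17 (adjusted p = 0.188), and for the lesion Lrrc26, a BK gamma subunit, at 2.15 ± 0.68 (adjusted p = 0.503).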

How the data were processed

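Striatal RNA was labelled with Cy3 and hybridised to 12 arrays, per the labels. The authors deposited scanner files made with Agilent Feature Extraction 10.7.3.1 (10.7 in the submitters' processing notes), whose processed signal is an intensity with background subtracted and not scaled between arrays, per the file headers. Their deposited table of intensity values was the same on all 62976 spots of each array, within 1e-06.

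Outlier spots were left out, spots of a probe averaged, and log2 values scaled to the 75th percentile of each array. Symbols came from RefSeq accessions (GRCr8 table). The probe with the highest mean stood for a gene; a probe was well above background on an array if 0.5 or more of its spots were marked so; 131 passing probes with a missing value were left out. limma 3.58.1 (R 4.3.3) was fitted to all 12 arrays and 4 groups, with 8 residual degrees of freedom and Benjamini-Hochberg adjustment over 19412 features (two-sided, threshold 0.05). An exact permutation test of 3 against 3 cannot go below 0.1, so none is given. On simulated data for the L-DOPA comparison, with 200 of 19412 features changed, 69% of log2 changes of 2 and 27% of those of 1 were recovered, with 3 false calls.

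The numbered arrays of the 2 L-DOPA groups deviated together at every number (correlations 0.37, 0.19 and 0.25), and share slides. In each other comparison the correlations had both signs (-0.18 to 0.20). The 0.20 was that of L-DOPA replicate 1 with lesioned saline replicate 1, which also share a slide. Members and lists were chosen with earlier results of these data known. Named genes are the called ones, the 8 smallest p-values of each comparison and 20 listed channels; others named with a family or an array were picked with their values known. Of the 75 genes, 2 are not reported singly here and are not drawn. Normexp used median spot signals, an intensity before background subtraction per the file headers.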

Additional observations from a re-analysis of the deposited data

How the results depend on the processing

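No gene called here or under an alternative turned its direction. The count of potassium channel genes called with L-DOPA, 1, became 0 with normexp background correction, with no filter on dim probes, with the slide as a fixed block, and with only the 2 groups compared. It also became 0 with Ttr as a covariate and without the 4 arrays of highest Ttr, both chosen after seeing the data; the second leaves 1 L-DOPA array, so its count of 0 says little. It stayed 1 but for Kcnk13 in place of Kcne3 with normexp and quantile normalization (Kcne3 adjusted p = 0.294) and with the filter on all 12 arrays, where Kcne3 was not tested. It became 2 (Kcne3 and Kcnk13) with the mean of the probes of a gene, every probe on its own, an intensity trend with robust prior, and the slide as a random block, and 3 (with Kcne5) with array weights. The zonisamide count of 0 became 2 with the mean of the probes and 1 with every probe on its own (Kcnk13) or the slide as a random block (Kcne3). The F test's 0 became 1 with the mean of the probes, every probe on its own or a random slide block, and 2 with array weights. Leaving out each array gave 0 to 2 with L-DOPA, 0 to 1 with zonisamide and 0 to 1 for the F test; the causes were not tested.

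With the replicate number as a block, 0 genes were called with L-DOPA (Kcne3 adjusted p = 0.0707) and 0 in the zonisamide comparison, where the numbers pair the arrays; it changed no other call, though over all features the zonisamide count went from 93 to 13. A fixed slide block sets aside NL 3 and SL 3, each alone on a slide. With 3 arrays a group, most 2-fold changes were missed on simulated data, where 27% of log2 changes of 1 and 69% of those of 2 were recovered. Dim probes such as Kcne3 depend on the background correction.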
